A study of Mus musculus with 12 samples.

Results

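The genes of the secretory pathway described here code for the chaperones of the endoplasmic reticulum (ER), its stress sensors, its degradation machinery, the channel through which proteins enter it and the coat of the vesicles that leave it. Of 38 genes listed, 37 were measured by 79 of the 22690 probe sets of the array, each with a single gene symbol, and Sec61g was covered only by a probe set that lists several symbols. The members were listed by gene symbol, with no threshold on measured values. They were followed in small intestine of 4 groups of male mice aged 14 weeks, with 3 biological replicates and 3 arrays per group: PPARα-null mice fasted for 24 h, PPARα-null fed mice, wild-type mice fasted for 24 h and wild-type fed mice. PPARα, missing in the PPARα-null mice, is a nuclear receptor that switches on fatty acid oxidation genes upon fasting. The labels give 129S4/SvJae for the PPARα-null fasted mice and 129S1/SvImJ for the wild-type fasted mice, and only 129Sv for the fed mice of either genotype. The methods name the same pair of substrains, so that genotype and substrain cannot be told apart. RNA came from the full-length intestine after fat and pancreas had been dissected away. The design text names AIN93M as the feed and the methods a standard chow. No source used here says whether the RNA of several mice was pooled for an array, and the p-values measure the spread between these samples.

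Proteins that are secreted or placed in membranes enter the ER through the Sec61 channel, guided by the signal recognition particle, and the signal peptidase then removes their leader. Inside, Hsp70 and Hsp90 type chaperones, lectin chaperones and disulfide isomerases fold them, and chains that do not fold are returned to the cytosol for degradation. When unfolded chains build up, the sensors ATF6, IRE1 (Ern1) and PERK (Eif2ak3) raise the amounts of chaperones through transcription factors such as XBP1. In the small intestine, goblet cells, Paneth cells, plasma cells and enterocytes all place a heavy load on this pathway.

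Ppara itself was read first as a check of the genotypes. Its probe set gave 13.2, 11.7 and 10.96 in PPARα-null fasted mice, 6.84, 7.50 and 7.35 in PPARα-null fed mice, 58.7, 48.1 and 30.8 in wild-type fasted mice and 19.9, 34.0 and 35.9 in wild-type fed mice (GCRMA intensity, a background-corrected linear brightness). Every PPARα-null array lay below every wild-type array, and whether the probe set lies in the deleted part is not known here. One free-text label calls the wild-type fasted arrays PPARα knockout, against their titles and strains, and their Ppara values lay in the wild-type range. The defining enterocyte genes were bright throughout, with a summed intensity of 7 of 9 markers between 49970 and 55900. The fed arrays shared a distribution of intensities with medians of 12.7 to 12.8 and the fasted arrays another with medians of 11.1 to 11.3, so that a separate processing of the 2 sets and the feeding state cannot be told apart. Changes upon fasting are therefore given relative to the common shift of the expressed probe sets, -0.32 on the log2 scale, and without that correction each is lower by 0.32. The comparisons between genotypes within a feeding state and the difference of the fasting responses do not contain the shift. All intensities printed are as deposited.

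Exocrine pancreas transcripts were carried over unequally. The summed intensity of 18 of 23 pancreas genes was 28780, 1195 and 29660 in PPARα-null fasted mice, 1335, 1307 and 1612 in PPARα-null fed mice, 24250, 19760 and 12810 in wild-type fasted mice and 3028, 1169 and 1558 in wild-type fed mice. Every fasted array thus held far more pancreas signal than any fed array, with the exception of PPARα-null fasted replicate 2. Pancreas acinar cells are rich in ER proteins, and the values of this replicate are given for the members further on. Because whole intestine was used, fewer cells of a type and less RNA per cell cannot be told apart.

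The ER genes fell upon fasting mainly in PPARα-null mice. A gene was called when 1 of its probe sets had a limma p under 0.01 and a fold over 1.3 either way at an intensity over 20, and 36 of the 37 genes passed the filter on intensity. In PPARα-null mice 24 of the 36 fell upon fasting, where 27.8% of all genes tested fell, 4 rose, where 21.3% of all genes rose, and 1 had probe sets in both directions, where 1.31% of all genes did. In wild-type mice 5 fell, against 9.83% of all genes, and 1 rose, against 12.8% of all genes. The median change of the 36 was -0.47 in PPARα-null mice, beside -0.05 over all genes, and -0.08 in wild-type mice, beside 0.03 over all genes. As deposited, the median was -0.79 in PPARα-null mice, with 30 members called lower upon fasting, where 49.4% of all genes were, and -0.40 in wild-type mice, with 21 called lower, where 38.5% of all genes were.

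Members differed between the genotypes in fasted mice, and 1 did so in fed mice. In fasted mice 17 of the 36 genes were lower in PPARα-null than in wild-type intestine, where 19.7% of all genes were lower, and 1 was higher, where 16.4% of all genes were higher. The median difference was -0.38, beside -0.01 over all genes. In fed mice no gene was lower, where 2.02% of all genes were lower, and 1 was higher, where 1.42% of all genes were higher, with a median of 0.02 beside 0.05 over all genes. The difference of the fasting responses (PPARα-null response minus wild-type response) was negative for 21 genes at an adjusted p under 0.05, where 18% of all genes were, and positive for 2, where 11.1% of all genes were. Its median was -0.39, beside -0.06 over all genes. In the brightest probe sets, the negative difference of 9 members (Canx, Dnajb11, Hyou1, Sdf2l1, Sec61a1, Sec61b, Spcs3, Ssr2 and Xbp1) missed the threshold in at least 1 of the 12 fits that left out 1 array, and their values over the 12 fits lay between -0.69 and -0.30. The other 12 members called in their brightest probe sets, of which Herpud1 alone had a positive difference, kept the call in all 12 fits.

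**Figure D1:**
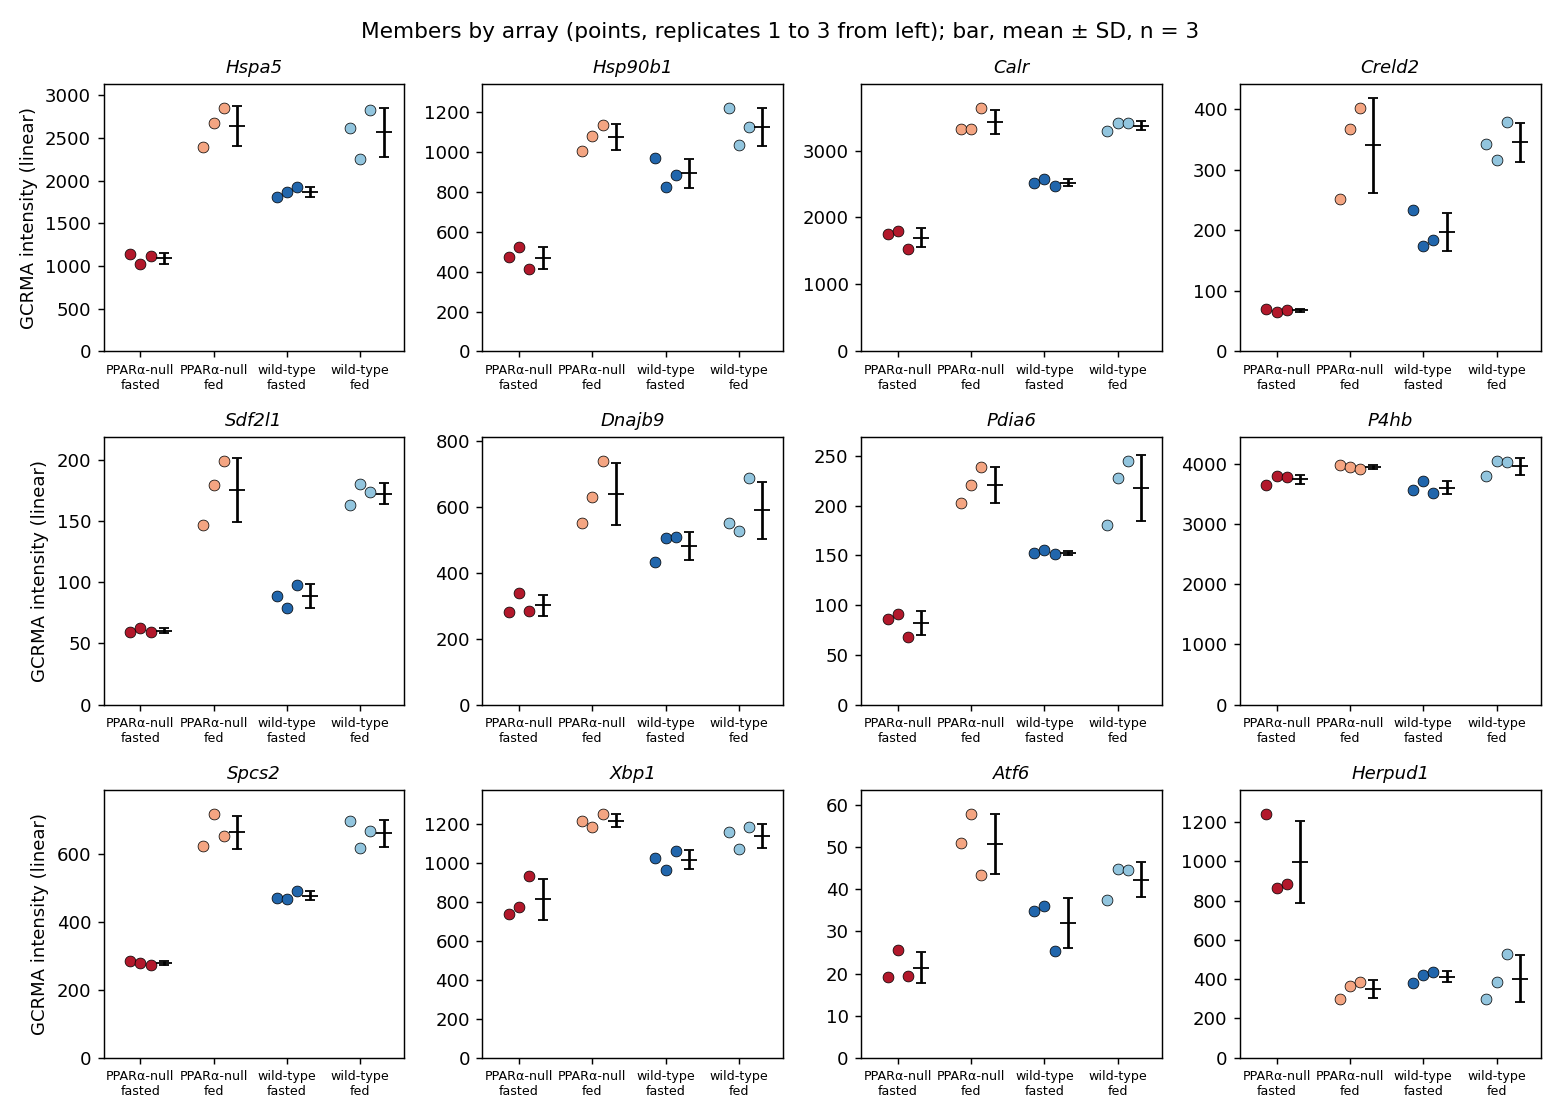
GCRMA intensity (linear axis from 0) of 12 members in each array of the 4 groups, with the mean and SD (n = 3) as a bar beside the points. For Hspa5, Creld2 and Spcs2 the 3 PPARα-null fasted arrays lie below all other arrays, for Herpud1 they lie above all others, and P4hb, a member that was not called, stays between 3518 and 4048.

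The Hsp70 and Hsp90 type chaperones and their cofactors moved together. All 9 fell upon fasting in PPARα-null mice, where 27.8% of all genes fell. All 9 were lower in PPARα-null than in wild-type fasted mice, where 19.7% of all genes were. All 9 had a negative difference of the responses, where 18% of all genes did. Their median changes were -0.88 upon fasting in PPARα-null mice and -0.14 in wild-type mice, and their median genotype difference was -0.70 in fasted and 0.02 in fed mice.

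Hspa5 codes for BiP, the central Hsp70 chaperone of the ER lumen, which also holds the stress sensors inactive. Its intensity was 1142, 1021 and 1112 in PPARα-null fasted mice, 2390, 2668 and 2849 in PPARα-null fed mice, 1812, 1867 and 1924 in wild-type fasted mice and 2612, 2254 and 2823 in wild-type fed mice. The PPARα-null fasted arrays were the lowest of the 12 with no overlap, and the fed arrays of the genotypes overlapped. Hspa5 fell by 0.95 on the log2 scale upon fasting in PPARα-null mice (SE 0.10, adjusted p = 6.45e-06) and changed by -0.14 in wild-type mice (adjusted p = 0.348). It was 1.71-fold lower in PPARα-null than in wild-type fasted mice (adjusted p = 6.41e-05), and the responses differed by -0.82 (SE 0.14, adjusted p = 0.00141). A further probe set of the gene gave the same calls. Hsp90b1 codes for GRP94, the Hsp90 of the ER, which folds integrins and Toll-like receptors. Its intensity was 471.5, 523 and 413 in PPARα-null fasted mice, 1005, 1081 and 1136 in PPARα-null fed mice, 971, 823 and 885 in wild-type fasted mice and 1221, 1034 and 1124 in wild-type fed mice. Here the wild-type fasted arrays came close to the fed arrays, and those of PPARα-null fasted mice stood well below. The genotype difference was -0.93 in fasted mice (1.91-fold lower, adjusted p = 2.54e-05) and -0.07 in fed mice (adjusted p = 0.861), with a change upon fasting of -0.88 in PPARα-null mice and -0.02 in wild-type mice.

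Creld2, an ER-resident protein induced by ER stress, showed the largest fall among the members. Its intensity was 70.75, 65.9 and 68.1 in PPARα-null fasted mice, 252, 367 and 402 in PPARα-null fed mice, 233, 173 and 185 in wild-type fasted mice and 342, 315 and 378.5 in wild-type fed mice. The PPARα-null fasted arrays were tightly grouped and lay far below all others. The change was -1.97 in PPARα-null mice (3.93-fold lower, adjusted p = 7.33e-07) and -0.50 in wild-type mice (adjusted p = 0.0377). The wild-type call was lost without any 1 of 7 arrays, which were all 3 PPARα-null fasted ones through the shared spread, wild-type fasted replicates 2 and 3 and wild-type fed replicates 1 and 3, and the change was then -0.51 to -0.42. In fasted mice Creld2 was 2.86-fold lower in PPARα-null than in wild-type intestine (adjusted p = 1.34e-05), and the responses differed by -1.47 (adjusted p = 6.53e-04).

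Hyou1, coding for GRP170, which exchanges the nucleotide of BiP, and Sdf2l1, coding for a partner of the BiP co-chaperone ERdj3, fell upon fasting in both genotypes. Hyou1 had 50.8, 51.4 and 42.8 in PPARα-null fasted mice, 195, 175 and 215.5 in PPARα-null fed mice, 89.5, 93.2 and 81.25 in wild-type fasted mice and 226, 297 and 222.5 in wild-type fed mice. The groups were ordered with no overlap between fasted and fed arrays, and the PPARα-null fasted arrays were lowest. The PPARα-null fed arrays of Hyou1 also all lay below the wild-type fed arrays, with a genotype difference of -0.34 that was not called. The change of Hyou1 upon fasting was -1.70 (SE 0.13) in PPARα-null and -1.17 (SE 0.13) in wild-type mice. The difference of the responses, -0.52, was close to the threshold (adjusted p = 0.0494). A second, dimmer probe set of Hyou1 was called lower in PPARα-null mice only and showed no call between genotypes. Its changes upon fasting were -0.40 in PPARα-null and -0.28 in wild-type mice. Sdf2l1 had 59.0, 62.6 and 59.0 in PPARα-null fasted mice, 147, 179 and 199 in PPARα-null fed mice, 89.0, 78.8 and 97.9 in wild-type fasted mice and 163, 179.9 and 173.5 in wild-type fed mice. Again the PPARα-null fasted arrays were the lowest and the wild-type fasted arrays lay between them and the fed arrays. Sdf2l1 changed by -1.21 (SE 0.11) in PPARα-null mice and by -0.65 (SE 0.11) in wild-type mice, and was lower by 0.55 in fasted PPARα-null than in fasted wild-type mice (SE 0.11, adjusted p = 0.00195).

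The J-domain proteins deliver unfolded chains to BiP. Dnajb9 (ERdj4) had 281, 338 and 285 in PPARα-null fasted mice, 552, 629 and 738 in PPARα-null fed mice, 433, 504 and 507.5 in wild-type fasted mice and 551, 527 and 687 in wild-type fed mice. In wild-type mice the fasted arrays lay somewhat below the fed ones, by about the common shift (0.03 relative to it), whereas those of PPARα-null fasted mice were the lowest of all, and the responses differed by -0.80 (SE 0.19). Dnajb11 (ERdj3) had 63.35, 76.5 and 79.0 in PPARα-null fasted mice, 137, 158.5 and 147 in PPARα-null fed mice, 99.0, 96.15 and 109 in wild-type fasted mice and 122, 142 and 161.5 in wild-type fed mice. Its PPARα-null fasted arrays all lay below the wild-type fasted ones, with a difference of -0.48 (SE 0.12). Dnajc3 (p58IPK), which also restrains the kinase PERK, had 102.5, 118 and 109.9 in PPARα-null fasted mice, 215, 230.3 and 254 in PPARα-null fed mice, 170.4, 183 and 183 in wild-type fasted mice and 244, 210 and 235 in wild-type fed mice. This probe set was lower by 0.70 in PPARα-null than in wild-type fasted mice (adjusted p = 8.44e-05), while the other 4 probe sets of Dnajc3 were not called in any comparison. The dimmest of them, at 6.39 to 14.2, did not pass the filter on intensity and could not be called. They changed by -0.56 and 0.10 upon fasting in PPARα-null mice. Manf, a small secreted protein that binds BiP, had 567, 606 and 595 in PPARα-null fasted mice, 1051, 1129 and 1221 in PPARα-null fed mice, 803, 781 and 848 in wild-type fasted mice and 1101, 1030 and 1178 in wild-type fed mice. Its fall in PPARα-null mice, -0.63 (SE 0.08), was the smallest of the 9, and it was still the lowest in all 3 PPARα-null fasted arrays.

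Of the lectin chaperones, which hold glycoproteins until they are folded, Calr (calreticulin) had 1758, 1802 and 1534 in PPARα-null fasted mice, 3317, 3324 and 3635 in PPARα-null fed mice, 2521, 2569 and 2475 in wild-type fasted mice and 3297, 3414 and 3408 in wild-type fed mice. The PPARα-null fasted arrays were the lowest, the wild-type fasted arrays intermediate and the fed arrays of the genotypes alike in range. Calr was lower by 0.57 in fasted PPARα-null mice (adjusted p = 1.50e-04), and all 3 of its probe sets gave this call. Canx (calnexin), the membrane-bound relative, had 942.5, 1035 and 996 in PPARα-null fasted mice, 1435, 1449 and 1488 in PPARα-null fed mice, 1321, 1266 and 1367 in wild-type fasted mice and 1625, 1391 and 1419 in wild-type fed mice. Its genotype difference in fasted mice was -0.41 (SE 0.08), which became -0.38 and missed the fold without PPARα-null fasted replicate 1, and its change upon fasting did not reach the fold in the brightest probe set of either genotype (-0.24 in PPARα-null and 0.15 in wild-type mice), while a dimmer probe set fell in PPARα-null mice. The only call of the fed comparison was a dim probe set of Canx, with 23.0, 23.4 and 24.5 in PPARα-null fed and 15.75, 18.2 and 16.5 in wild-type fed mice (log2 0.50, adjusted p = 0.183), which the brighter probe sets of the gene did not show and which was lost without PPARα-null fed replicate 2 or 3 or wild-type fed replicate 1 or 3.

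The disulfide isomerases, which make and reshuffle the disulfide bonds of new chains, did not move together. Pdia6, a regulator of the sensors IRE1 and PERK, had 86.0, 91.1 and 68.1 in PPARα-null fasted mice, 202, 220.5 and 238 in PPARα-null fed mice, 152, 155 and 151 in wild-type fasted mice and 181, 227 and 245 in wild-type fed mice. Its PPARα-null fasted arrays lay far below all others, with a genotype difference of -0.91 (SE 0.13) in fasted mice and a difference of the responses of -0.94 (adjusted p = 0.00291). Pdia4 (ERp72) was dim, at 15.15, 12.5 and 12.3 in PPARα-null fasted mice, 31.4, 28.3 and 33.5 in PPARα-null fed mice, 21.0, 20.7 and 19.9 in wild-type fasted mice and 28.1, 32.3 and 33.5 in wild-type fed mice. It was lower by 0.63 in PPARα-null than in wild-type fasted mice, with no overlap (adjusted p = 4.33e-04). In that comparison Pdia4 passed the filter on intensity only through the wild-type fasted mean, 20.55, just over the threshold of 20. Pdia3 (ERp57), the partner of the lectin chaperones, fell in PPARα-null mice by 0.46 (adjusted p = 0.00182) and its genotype difference of -0.27 in fasted mice was not called. P4hb, the classical protein disulfide isomerase and a subunit of the collagen prolyl hydroxylase and of the microsomal triglyceride transfer protein, was not called in any comparison, with changes of 0.24 in PPARα-null and 0.18 in wild-type mice and a genotype difference of 0.06 in fasted mice.

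**Figure D2:**
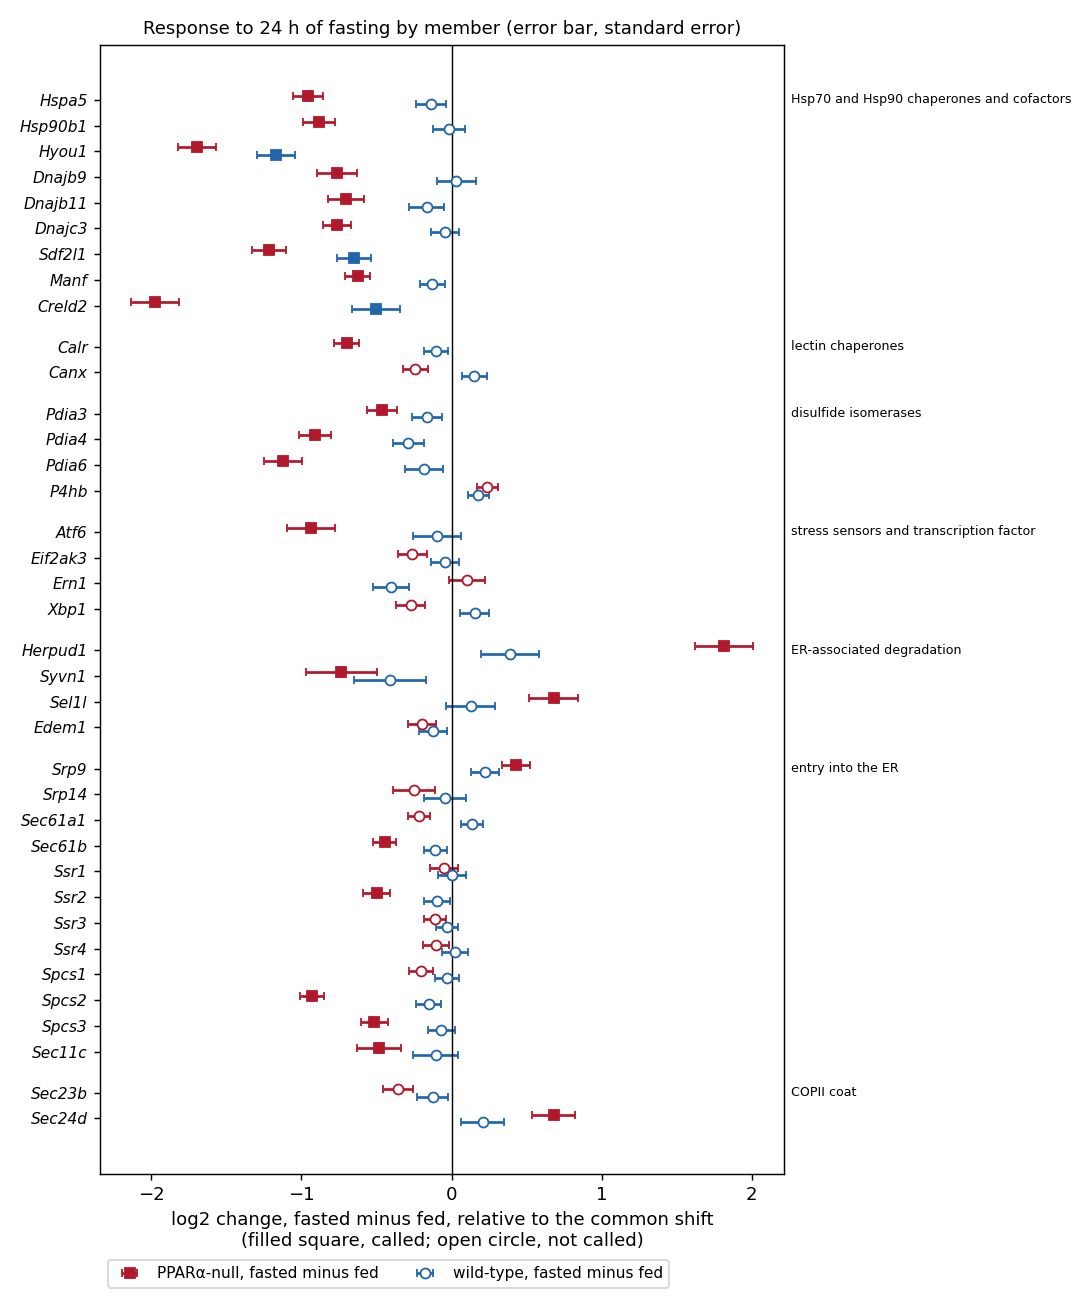
Log2 change upon fasting (fasted minus fed, relative to the common shift; error bar, SE) of the brightest probe set of each of the 37 members, in PPARα-null mice (red, upper) and wild-type mice (blue, lower), by role. Filled squares were called at a p under 0.01 and a fold over 1.3. The 9 chaperones and cofactors at the top lie between -1.97 and -0.63 in PPARα-null mice, and Herpud1 lies at 1.82.

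Of the sensors, Atf6, the membrane-bound transcription factor that is cut in the Golgi under stress, had 19.1, 25.7 and 19.4 in PPARα-null fasted mice, 51.1, 57.8 and 43.5 in PPARα-null fed mice, 34.9, 36.0 and 25.3 in wild-type fasted mice and 37.4, 44.8 and 44.65 in wild-type fed mice. It fell by 0.94 in PPARα-null mice (adjusted p = 3.15e-04) and was lower by 0.58 in fasted PPARα-null than in fasted wild-type mice (adjusted p = 0.0116). The fasted groups overlapped, since 1 PPARα-null array reached above the lowest wild-type one, and the genotype call was lost without PPARα-null fasted replicate 1 or 3 or wild-type fasted replicate 1 or 2, with differences of -0.52 to -0.49. Xbp1, whose mRNA is spliced by IRE1, had 736.5, 774 and 931.5 in PPARα-null fasted mice, 1218, 1183 and 1250 in PPARα-null fed mice, 1024, 966 and 1064 in wild-type fasted mice and 1161, 1070 and 1187 in wild-type fed mice in its brightest probe set. The responses differed by -0.43 (adjusted p = 0.0371), and neither the change in PPARα-null mice, -0.27, nor that in wild-type mice, 0.15, was called. A dim probe set of Xbp1, at 17.8 to 44.5, was called higher upon fasting in both genotypes, by 1.02 in PPARα-null mice, against the sign of the 3 brighter ones there, and by 0.88 in wild-type mice. As deposited the wild-type change was 0.565 and was not called, since its p missed the threshold. Without wild-type fed replicate 2 the changes were 1.02 in PPARα-null and 1.02 in wild-type mice, and both calls were lost because the wild-type fed mean, 19.4, no longer passed the filter on intensity. Eif2ak3 (PERK), between 103 and 185 in all arrays, was not called. Ern1 (IRE1) did not pass the filter on intensity in any comparison, at 10.5 to 21.4. These are mRNA levels, and none of them reads the activity of a sensor.

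The degradation genes went in different directions. Herpud1, a ubiquitin-like membrane protein that assembles the degradation complex, was the only member called higher in PPARα-null than in wild-type fasted mice. Its intensity was 1239, 864 and 886 in PPARα-null fasted mice, 297, 367 and 384.5 in PPARα-null fed mice, 383, 422 and 435 in wild-type fasted mice and 297, 384 and 529 in wild-type fed mice. The 3 PPARα-null fasted arrays lay far above all 9 others, which overlapped. Herpud1 rose 3.52-fold upon fasting in PPARα-null mice (log2 1.82, SE 0.19, adjusted p = 7.21e-06) and changed by 0.39 in wild-type mice (adjusted p = 0.164), and in fasted mice it was 2.38-fold higher in PPARα-null intestine (adjusted p = 2.46e-04). A second probe set gave 453.5, 332 and 346 in PPARα-null fasted and 107, 125 and 142 in wild-type fasted mice and the same calls. Sel1l, the scaffold of the HRD1 ubiquitin ligase, had 219.5, 170 and 167 in PPARα-null fasted mice, 119, 136 and 181 in PPARα-null fed mice, 149, 130.2 and 157 in wild-type fasted mice and 139, 183 and 178.5 in wild-type fed mice in its brightest probe set and rose by 0.68 in PPARα-null mice (adjusted p = 0.00353). A second probe set rose too, with 214, 189 and 190.2 in PPARα-null fasted and 132, 120.3 and 135 in PPARα-null fed mice, whereas a dimmer one, with 57.9, 52.6 and 46.4 in PPARα-null fasted and 88.1, 86.1 and 90.3 in PPARα-null fed mice, fell, so that the direction of Sel1l depended on the probe set. In wild-type mice only its dimmest probe set was called, lower by 0.64, with a fed mean of 20.2, just over the filter. The others changed there by 0.13, 0.33 and -0.21, from brightest to dimmer. Beside Herpud1, Sel1l had the other positive difference of the responses, in a probe set other than its brightest.

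Edem1, a lectin that sends misfolded glycoproteins to degradation, was also split. Its brightest probe set had 296, 319 and 301.5 in PPARα-null fasted mice, 444, 408 and 457 in PPARα-null fed mice, 372, 307 and 347 in wild-type fasted mice and 460.3, 426 and 503 in wild-type fed mice and was not called. The other had 142.5, 147 and 125 in PPARα-null fasted mice, 312, 348 and 405 in PPARα-null fed mice, 287, 258 and 239 in wild-type fasted mice and 381, 369 and 393 in wild-type fed mice. In this one the PPARα-null fasted arrays were clearly the lowest, with a genotype difference of -0.92 in fasted mice (adjusted p = 3.31e-05). Syvn1, the HRD1 ligase itself, fell by 0.73 in PPARα-null mice (SE 0.24, adjusted p = 0.0195). Its call was lost in 8 of the 12 fits with 1 array left out, which gave -0.99 to -0.48, and between the genotypes it differed by -0.48 in fasted mice, which was not called.

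Short stretches upstream of genes in this group are shown because the best known control element of ER chaperone genes, the ER stress response element, can be read in them. Worked out mainly on human genes, it consists of CCAAT and CCACG separated by 9 bases, and a second form of ATTGG and CCACG separated by 1 base. Promoters of RefSeq (GRCm38.p6, 250 bases before to 50 after the start) were matched for 31 of the 38 genes and searched on both strands. The first form was found in Hspa5, Hsp90b1, Calr, Canx, Pdia6, Dnajc3, Creld2 and Syvn1, 8 of 31 genes, and in 0.119% of all 32851 promoters. The second form was found in Herpud1 and, past the start site, in Dnajb11, and in 0.0365% of all promoters. In the sequences below, written along the gene's strand, capitals mark the 2 parts of the element (for Creld2 it lies on the opposite strand).
Hspa5, chr2:34772005-34772063, plus strand: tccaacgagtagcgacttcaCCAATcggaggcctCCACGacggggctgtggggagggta
Hsp90b1, chr10:86705618-86705676, minus strand: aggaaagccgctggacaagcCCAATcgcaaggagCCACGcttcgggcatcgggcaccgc
Pdia6, chr12:17266471-17266529, plus strand: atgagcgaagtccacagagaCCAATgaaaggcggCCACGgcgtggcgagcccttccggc
Creld2, chr15:88819500-88819558, plus strand: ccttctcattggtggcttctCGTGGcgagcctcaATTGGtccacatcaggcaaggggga
Herpud1, chr8:94386357-94386407, plus strand: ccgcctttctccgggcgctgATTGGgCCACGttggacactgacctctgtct
The element shown begins 65 bases upstream of the start in Hspa5, 212 in Hsp90b1, 98 in Pdia6, 126 in Creld2 and 52 in Herpud1. The promoter of Hsp90b1 held 2 matches, of which 1 is shown. A match describes the letters and does not show that a factor binds there.

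The genes with the first form changed by -1.97 to -0.24 upon fasting in PPARα-null mice, with a median of -0.82, and 7 of the 8 were called lower by their brightest probe set. The 19 tested genes with a promoter and neither form had a median of -0.25, between -1.21 and 0.68, with 6 called lower and 3 higher. With 1 probe set per gene, 25.2% of all genes were called lower in this comparison and 17.8% higher. In wild-type mice the medians were -0.12 for the 8 genes and -0.03 for the 19. In fasted mice the genotype difference had a median of -0.74 for the 8 genes, 7 of them called lower, and -0.13 for the 19, of which 4 were called lower, where 17.7% of all genes were with 1 probe set per gene. Of the 2 genes with the second form, Herpud1 went the other way. The other, Dnajb11, fell by 0.70 upon fasting in PPARα-null mice, and its genotype difference in fasted mice was -0.48. These groups were compared by their values alone, and role was not held equal between them. All 9 Hsp70 and Hsp90 type chaperones and cofactors fell upon fasting in PPARα-null mice. Among them were Dnajb11 with the second form, Sdf2l1 (-1.21) and Dnajb9 (-0.76) with neither form, and Hyou1 and Manf with no promoter matched.

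**Figure D3:**
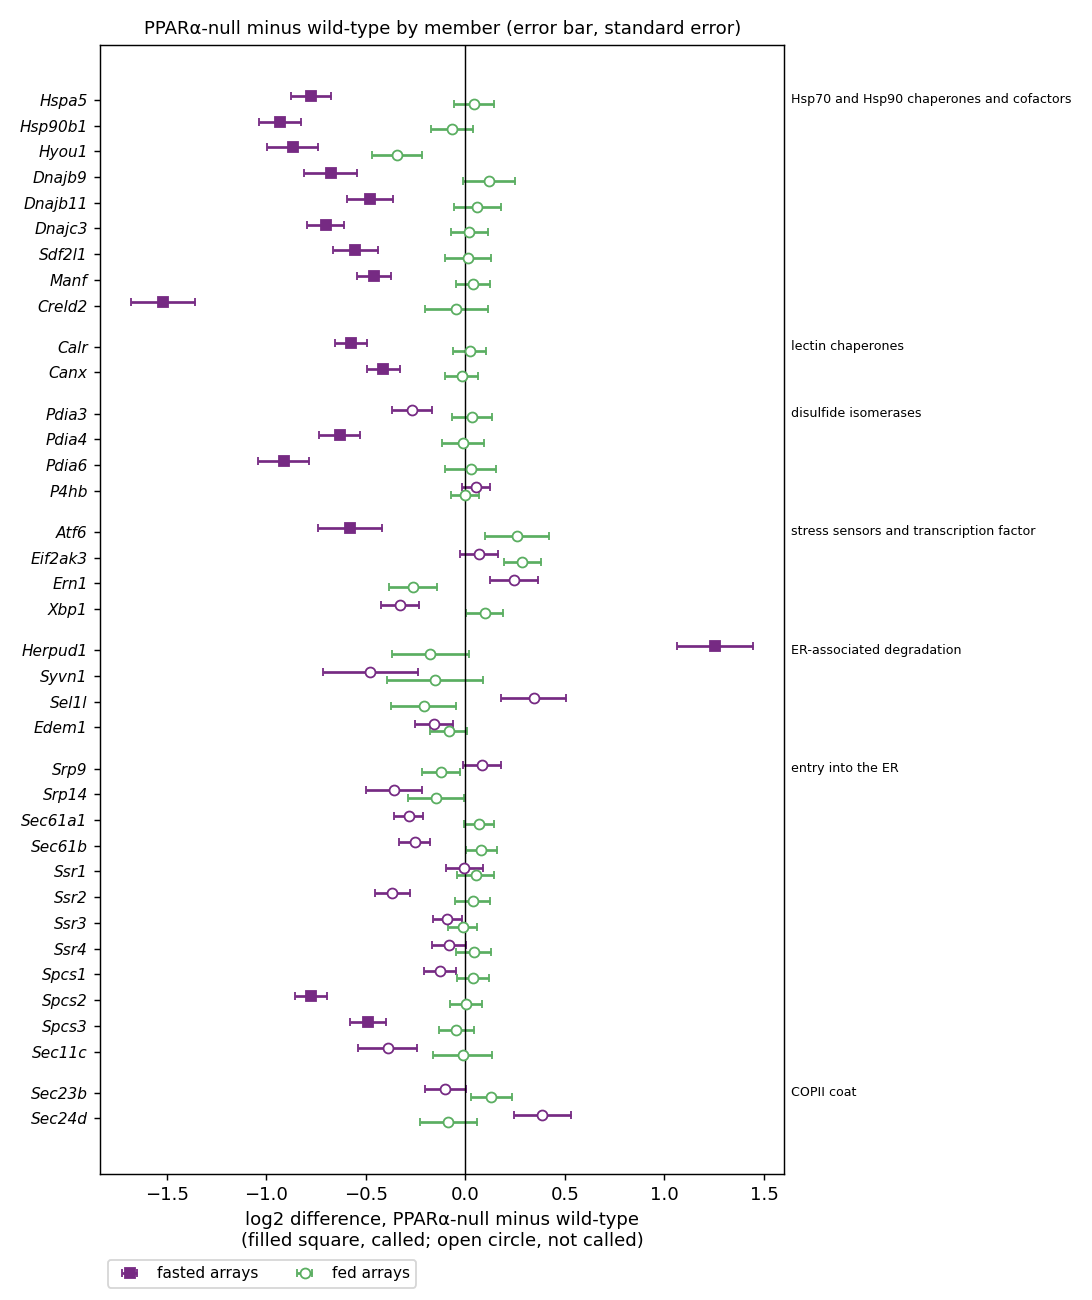
Log2 difference, PPARα-null minus wild-type (error bar, SE), of the brightest probe set of each member in fasted mice (purple, upper) and fed mice (green, lower), by role. In fed mice every member lies between -0.34 and 0.29 and none was called by this probe set. In fasted mice 16 were called lower and Herpud1 higher.

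The genes of entry into the ER moved less than the chaperones. Upon fasting in PPARα-null mice 7 of the 12 measured fell, where 27.8% of all genes fell, and 1 rose, where 21.3% did. The median of the 12 was -0.23. In fasted mice 2 of the 12, both of the signal peptidase, were lower in PPARα-null than in wild-type intestine, a share near the 19.7% of all genes, with a median of -0.27. Spcs2, a non-catalytic subunit of the peptidase, had 283.5, 280 and 274 in PPARα-null fasted mice, 622, 717 and 652 in PPARα-null fed mice, 471, 468 and 492 in wild-type fasted mice and 696, 617 and 669 in wild-type fed mice. The PPARα-null fasted arrays were the lowest and spanned a narrow range, and the genotype difference in fasted mice was -0.77, SE 0.08, adjusted p = 1.34e-05. In a second probe set of Spcs2 this difference was -0.37 and missed the fold. Spcs3, which binds the catalytic subunit, had 248, 249 and 249.5 in PPARα-null fasted mice, 489, 417 and 423 in PPARα-null fed mice, 321, 347 and 382 in wild-type fasted mice and 444, 453.5 and 471 in wild-type fed mice and differed by -0.49 (SE 0.09) between the fasted genotypes. Sec11c, a catalytic subunit, fell by 0.48 in PPARα-null mice (adjusted p = 0.0145), a call lost without PPARα-null fasted replicate 1 or 3 or any PPARα-null fed replicate, with changes of -0.52 to -0.41. Spcs1, another small subunit, was not called.

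Of the channel, Sec61b, its small beta subunit, had 960.4, 1043 and 1046 in PPARα-null fasted mice, 1678, 1783 and 1702 in PPARα-null fed mice, 1217, 1166 and 1252 in wild-type fasted mice and 1603, 1718 and 1563 in wild-type fed mice. It fell in PPARα-null mice by 0.45 (adjusted p = 3.41e-04), and its genotype difference in fasted mice, -0.25, missed the fold. Sec61a1, the pore itself, was called lower upon fasting only in its dimmest probe set, at 15.6 to 30.5, and its brightest changed by -0.22 in PPARα-null mice and 0.14 in wild-type mice, a difference of -0.35 (adjusted p = 0.0273). Ssr2, a subunit of the translocon-associated complex, had 271, 297 and 318 in PPARα-null fasted mice, 493, 551.5 and 512 in PPARα-null fed mice, 400.2, 369.8 and 369.9 in wild-type fasted mice and 492, 483 and 542 in wild-type fed mice and fell by 0.50 in PPARα-null mice (adjusted p = 4.01e-04). The other 3 subunits, Ssr1, Ssr3 and Ssr4, changed by -0.05, -0.11 and -0.10 and were not called.

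Of the signal recognition particle, Srp9 rose by 0.43 in PPARα-null mice (adjusted p = 0.00213), a call that was lost as deposited and, at 0.38, without PPARα-null fasted replicate 3. Srp14, which pairs with it on the RNA of the particle, had 145, 206 and 204 in PPARα-null fasted mice, 283, 240.2 and 291 in PPARα-null fed mice, 252, 212 and 240.4 in wild-type fasted mice and 333.5, 268 and 302 in wild-type fed mice in its brightest probe set, with no call. Its dimmest had 68.4, 79.7 and 77.0 in PPARα-null fasted mice, 162, 179 and 161 in PPARα-null fed mice, 91.0, 78.1 and 80.0 in wild-type fasted mice and 159, 149.8 and 151 in wild-type fed mice and fell in both genotypes, by 0.84 in PPARα-null mice and 0.57 in wild-type mice. Of the coat of vesicles that leave the ER, Sec24d, a cargo adaptor, had 489, 464 and 491 in PPARα-null fasted mice, 315, 346 and 479 in PPARα-null fed mice, 377, 345 and 382.5 in wild-type fasted mice and 357, 374.5 and 467 in wild-type fed mice. It rose by 0.68 in PPARα-null mice (adjusted p = 0.00141) relative to the common shift, and as deposited it rose by 0.36 and was not called. Sec23b, the partner in the inner coat, was not called.

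Other genes of the pathway were read from a list of 68, of which 60 had a probe set of their own. In PPARα-null mice 20 of 54 tested fell (37%, beside 27.8% of all genes) and 7 rose (13%, beside 21.3%) upon fasting. In wild-type mice 6 fell (11.1%, beside 9.83%) and 4 rose (7.41%, beside 12.8%), shares near or below those of all genes. In fasted mice 18 of 53 were lower (34%, beside 19.7%) and 4 higher (7.55%, beside 16.4%) in PPARα-null than in wild-type intestine. In fed mice Lman1 was called lower (1.85%, beside 2.02% of all genes) and Ddit3 higher (1.85%, beside 1.42%) in PPARα-null than in wild-type intestine. These shares were near those of all genes. The brightest probe set of Lman1 overlapped, at 186, 204 and 235 in PPARα-null fed and 205, 251 and 229 in wild-type fed mice. Its call came from a dimmer one. Mogs, the glucosidase that trims the first sugar of new glycoproteins, had 56.6, 46.4 and 65.95 in PPARα-null fasted and 89.7, 112 and 98.0 in wild-type fasted mice. Bet1, a SNARE of ER to Golgi transport, had 23.0, 19.4 and 19.5 in PPARα-null fasted and 48.7, 46.6 and 45.0 in wild-type fasted mice. The fasted genotypes did not overlap for either gene, and the difference was -0.84 (SE 0.14) for Mogs and -1.18 (SE 0.14) for Bet1. Derl2, a derlin of the degradation complex, and Mcfd2, which carries clotting factors with LMAN1, differed by -0.80 (Derl2) and -0.81 (Mcfd2) between the fasted genotypes. Ddit3 (CHOP), the factor that PERK signalling induces, had 17.6, 17.5 and 15.6 in PPARα-null fasted mice, 42.3, 71.2 and 48.4 in PPARα-null fed mice, 23.3, 23.7 and 24.35 in wild-type fasted mice and 34.4, 39.1 and 38.8 in wild-type fed mice. It fell by 1.33 upon fasting in PPARα-null mice and was lower by 0.50 in PPARα-null than in wild-type fasted mice. In that comparison of fasted mice Ddit3 passed the filter on intensity only through the wild-type mice. In fed mice it was higher by 0.49 in PPARα-null than in wild-type mice (adjusted p = 0.221), so that its larger fall in PPARα-null mice included a higher fed level. Among genes that rose in PPARα-null mice were Creb3l3, a liver and gut transcription factor of the ATF6 type, with 1869, 1682 and 1795 in fasted and 1111, 1177 and 1120 in fed mice, and Sar1b, the GTPase of the vesicle coat needed for chylomicrons, with 1845, 2164 and 1912 in fasted and 1719, 1694 and 1763 in fed mice. Creb3l3 rose in wild-type mice as well, by 0.56. These changes are relative to the common shift, and as deposited that of Creb3l3 in wild-type mice was 0.24 and that of Sar1b in PPARα-null mice 0.19, both under the fold. Sar1b was higher by 0.45 in PPARα-null than in wild-type fasted mice. Sec22b, a further SNARE, rose in one probe set and was not called in its brighter one.

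Among the PPARα-null fasted arrays, replicate 2 had a pancreas signal as low as in fed mice. It lay below all 3 wild-type fasted arrays for 25 of the 36 members tested. How often it did so over all genes was not counted, so this count stands without a share to set beside it. The median difference from the wild-type fasted mean over the 36 was -0.33 in replicate 2 and -0.44 in replicates 1 and 3. Of the 17 genes called lower, a call in which replicate 2 took part, it lay below for 15, the exceptions being Atf6 and the brightest probe set of Edem1. Hspa5 differed by -0.87 in replicate 2 and by -0.73 in replicates 1 and 3. Creld2 differed by -1.57 in replicate 2 and by -1.49 in the others, and Herpud1 was higher by 1.07 in replicate 2 and by 1.35 in the others. With replicates 1 and 3 left out together, a fit added after the data had been seen, 14 genes were lower and 1 higher in PPARα-null than in wild-type fasted mice, where 14.7% and 12.8% of all genes were. In that fit 17 fell and 4 rose upon fasting in PPARα-null mice, where 21.3% and 16.8% of all genes did. It takes the remaining array to vary like the other groups, 13 of its 14 genes were among the 17, and the calls lost were those of Dnajb9, Sdf2l1, Dnajb11 and Atf6. The median difference of the responses over the members was then -0.34, beside -0.39 with all arrays. With pancreas signal as a covariate, 17 were lower and 1 higher in PPARα-null than in wild-type fasted mice, where 19.7% and 15.9% of all genes were, and all 17 were shared with the fit without it. Upon fasting in PPARα-null mice 19 fell and 5 rose, where 21.8% and 18% of all genes did.

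**Figure D4:**
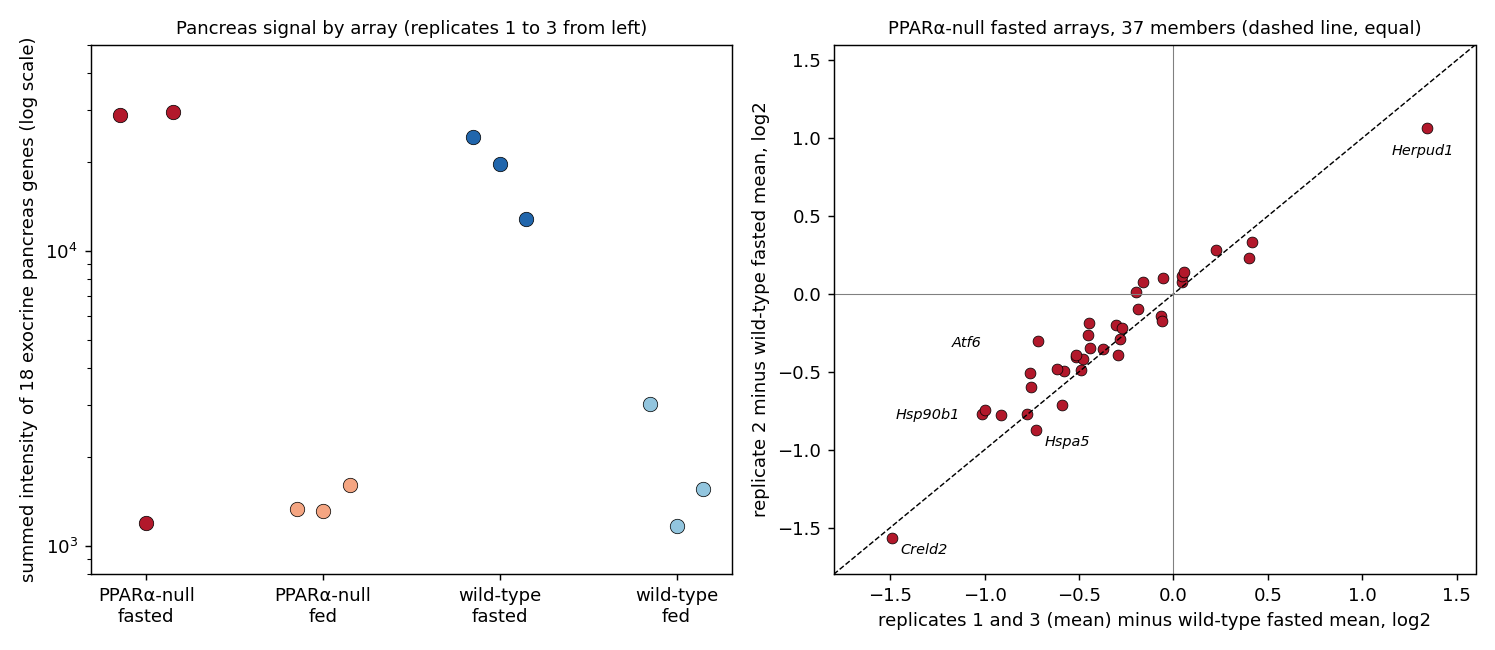
Left, summed intensity of 18 exocrine pancreas genes in each array (log axis). Right, log2 difference from the wild-type fasted mean of each of 37 members in PPARα-null fasted replicate 2 (vertical axis) against the mean of replicates 1 and 3 (horizontal axis), with equality as a dashed line. Replicate 2 holds 1195 of pancreas signal, against 28780 and 29660, and Creld2, Hsp90b1 and Hspa5 are below 0 and Herpud1 above 0 on both axes.

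Markers of other secretory cells moved with some of these results. The summed intensity of 4 of 7 plasma cell markers was 1650 to 2451 in PPARα-null fasted mice, 3981 to 4626 in PPARα-null fed mice, 3170 to 4015 in wild-type fasted mice and 4568 to 5104 in wild-type fed mice. The PPARα-null fasted arrays thus had the lowest plasma cell signal, and all 3 markers tested were called lower in the PPARα-null than in the wild-type fasted mice, with a median of -1.26. With 1 probe set per gene, as for the markers, 17.7% of all genes were called lower and 13.9% higher in this comparison. The same shares apply to the calls of the other marker lists. Plasma cells are among the richest in ER, and their part in the lower chaperone values was not tested. Goblet cell markers (7 of 9) summed to 31530 to 33440 in PPARα-null fasted mice and 26990 to 28770 in wild-type fasted mice, a sum carried by the brightest of them. Of the 7, Guca2a was called higher (0.67) and Clca1 (-0.44) and Agr2 (-0.40) lower in PPARα-null than in wild-type fasted mice, and their part in the lower chaperone values was not tested. Paneth cell markers (4 of 7) summed to 17550 to 18860 in PPARα-null fasted mice and 18490 to 22160 in wild-type fasted mice, with 1 called higher and 1 lower. Enteroendocrine markers (9 of 9) summed to 4155 to 4836 in PPARα-null fasted mice and 3393 to 4013 in wild-type fasted mice, with 4 called higher. Smooth muscle markers (5 of 5) summed to 2749 to 3013 in PPARα-null fasted mice and 1867 to 3048 in wild-type fasted mice, with no call.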

How the data were processed

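Total RNA of mouse small intestine had been hybridized on Affymetrix Mouse 430A arrays, 12 in all. The authors deposited linear intensity values per probe set, computed with GCRMA (version 2.20 per the labels), which corrects background, normalizes by quantiles and summarizes probes. Fed arrays are written with 2 decimals and have other quantiles than fasted arrays. The number of arrays limits the precision. Values were taken to log2, and limma 3.58.1 in R 4.3.3 (lmFit, eBayes) was fitted to all probe sets of the 12 arrays with a mean for each group. The thresholds of a call, an unadjusted p under 0.01, a fold over 1.3 and an intensity over 20 in wild-type fed mice, follow the study's methods. The shift removed before the fold, the direct comparison of genotypes and its filter (over 20 in either group compared) were added here. The difference of the responses needed an intensity over 20 in any group and an adjusted p under 0.05. P-values were adjusted by Benjamini-Hochberg over every probe set that passed the filter on intensity. A gene counted once if any probe set with its symbol alone passed. Each member is shown by its brightest probe set, and every array is printed for the 24 called members with the smallest p. Changes upon fasting are relative to the median fasted-minus-fed difference of the 9370 probe sets over 20 in wild-type fed mice, both genotypes together. The members, gene lists and tests were chosen with earlier results of these data known. The model was tested on simulated data. Alternatives were other scalings, filters, thresholds and variances, a block, a pancreas covariate, other choices of probe sets and leaving out each array. Promoters were searched with Python 3.11.15.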

Additional observations from a re-analysis of the deposited data

Results flagged for a closer look

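The fasting response differed between the genotypes, by the limma test of the difference itself, in the brightest probe set of 21 members. With 1 probe set per gene, 16.2% of all genes had a negative difference and 8.7% a positive one. Values are the response in PPARα-null mice minus that in wild-type mice on the log2 scale. Among the Hsp70 and Hsp90 type chaperones and cofactors the difference was -1.47 for Creld2, -0.87 for Hsp90b1, -0.82 for Hspa5, -0.80 for Dnajb9, -0.72 for Dnajc3, -0.57 for Sdf2l1, -0.54 for Dnajb11, -0.52 for Hyou1 and -0.50 for Manf. For the lectin chaperones it was -0.60 for Calr and -0.39 for Canx, and for the disulfide isomerases -0.94 for Pdia6 and -0.62 for Pdia4. Atf6 had -0.84 and Xbp1 -0.43. Among genes of entry into the ER, Spcs2 had -0.78, Spcs3 -0.44, Ssr2 -0.40, Sec61a1 -0.35 and Sec61b -0.34. Herpud1, at 1.43, was the only one of the 21 that was positive.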

How the results depend on the processing

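None of the called changes of the members was reversed under an alternative. In wild-type mice, 6 members were called upon fasting, against 21 as deposited, all lower. With 1 probe set per gene 3 were called, all lower, where 7.74% of all genes fell and 9.9% rose. The single call of the fed comparison became 2 with each array centred on its median, where 0.809% of all genes were higher and 2.92% lower. The count was 0 at an intensity over 100, where 1.23% of all genes were higher and 1.88% lower. At an adjusted p under 0.05 it was 0 too, beside 0.101% and 0.624%. With 1 probe set per gene it was also 0, beside 1.06% and 1.42%. With single arrays left out it was 0 to 1. The 23 calls of the difference of the responses became 15 with each array centred and 12 without PPARα-null fasted replicates 1 and 3, and 10 of the 21 negative ones kept their call in that fit. The share of all genes called higher and lower upon fasting in wild-type mice was 12.8% and 9.83%, and 3.21% and 38.5% as deposited. In PPARα-null mice the shares were 21.3% and 27.8%, and 9.23% and 49.4% as deposited. With the replicate block the members called were 5 upon fasting in wild-type mice, 28 in PPARα-null mice, 19 and 1 between the fasted and fed genotypes, and 21 for the difference. Of all genes, 12.8% then rose and 9.77% fell upon fasting in wild-type mice, and 21.3% and 27.7% in PPARα-null mice. Between genotypes 16.2% were higher and 19.5% lower in fasted mice, and 1.52% and 2.11% in fed mice. The difference was positive for 10.6% and negative for 17.2%. Of 18 same-numbered pairs of arrays, 5 correlated above 0.1 (-0.149 to 0.218). Pairs with different numbers were not compared, so whether replicate numbers pair the samples is not known. With each array centred, the difference lost Sec61a1, Sec61b, Sdf2l1, Dnajb11, Hyou1, Xbp1, Ssr2 and Spcs3. The cause of these changes was not tested.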
